A study of Danio rerio with 2 samples.

Results

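RNA polymerase II (Pol II) peaks on unplaced scaffolds were all peaks whose sequence name began with chrUn, in a list of Pol II peaks from zebrafish embryos at 4 h post-fertilization (hpf). They numbered 524 of 20243 peaks (2.59%) and lay on 175 scaffolds, and the other 19719 peaks lay on chr1 to chr25. Pol II was measured by chromatin immunoprecipitation and sequencing (ChIP-seq) with antibody 8WG16, in embryos of the wild-type strain Tübingen (WT Tubingen in the labels) that carried no mutation and received no treatment. The list was called once on pooled replicates against input chromatin, so no value given here has a replicate check. The input's own values were not used here. Differences below are descriptions. Their intervals cover counting error only, and clustered peaks, which depend on each other, make them too narrow.

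Antibody 8WG16 recognizes the C-terminal repeat domain of the largest Pol II subunit, mainly in its unphosphorylated form. Pol II transcribes protein-coding genes and many small nuclear RNAs, and zebrafish embryos begin large-scale transcription of their own genome shortly before 4 hpf. Unplaced scaffolds are stretches of assembled sequence that could not be assigned to a chromosome, often because they hold repeats or near-identical copies of other loci. The long arm of chromosome 4 is known in zebrafish as heterochromatic and rich in repeats and zinc finger genes, and its peaks beyond 30 Mb (2504) are given here as a second comparison. The study placed reads with several equally good positions at 1 of them at random, which shares signal among copies. The part of this placement in any value below was not tested.

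Each peak has a position, a summit and a score. The score was read as 10 times the highest −log10 q in the peak, which the list does not state itself. Its lowest value was 20, and it measures how significant a peak is, not how strongly Pol II was enriched, so it varies with depth and background. Positions are counted from 1 in the build Zv10 (GRCz10). Scaffold lengths were not used here, so the end of a scaffold's last peak serves as a lower bound of its length, and scaffolds without a peak were not counted.

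Most scaffolds with a Pol II peak had few of them, and a small number had many. The 175 scaffolds carried a mean of 2.99 peaks and a median of 2. A single peak was found on 86 scaffolds (49.1%), 2 or 3 peaks on 48 and 4 or more on 41. These 41 scaffolds held 322 of the 524 peaks, and 28 scaffolds sufficed to hold 50% of them. The last peak ended at a median of 20060 bp, between 380 and 367940 bp, and beyond 100 kb on 13 scaffolds. This median was 12915 bp on scaffolds with 1 peak, 26535 bp with 2 or 3, 26445 bp with 4 to 7 and 93210 bp with 8 or more. Counts per scaffold are therefore not densities. Peaks covered 786.86 kb of scaffold sequence. This was 11.8% of the summed sequence up to the last peak of each scaffold, an upper value because the sequence after that peak is not included.

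**Figure D1:**
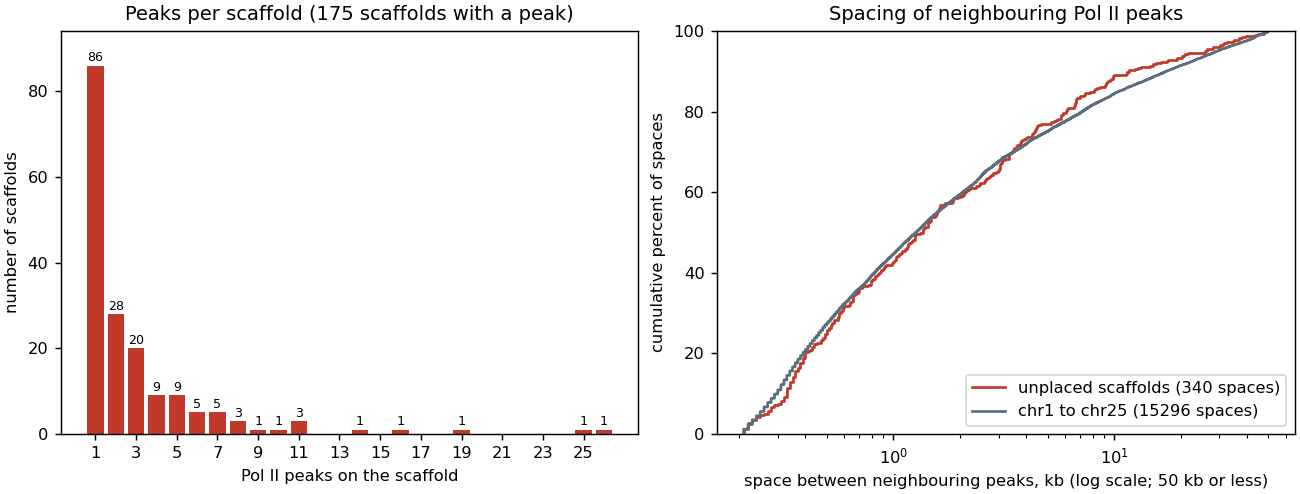
Left, number of scaffolds (y) by the number of Pol II peaks on them (x), where 86 scaffolds have 1 peak and the highest count is 26. Right, cumulative percent of spaces between neighbouring peaks (y) against the length of the space in kb on a log scale (x), for spaces of 50 kb or less, with 340 spaces on unplaced scaffolds in red and 15296 on chr1 to chr25 in grey. The 2 curves lie close together, with medians of 1340 bp on scaffolds and 1260 bp on chromosomes.

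The 10 scaffolds with the most peaks held 152 peaks, or 29.0% of the scaffold peaks. The scaffold chrUn_KN149847v1 led with 26 peaks between positions 351 and 123870. Their widths were 410 to 3540 bp with a median of 685 bp, and their scores were 28 to 511 with a median of 67. The scaffold chrUn_KN149696v1 followed with 25 peaks from 27981 to 367940, scoring 28 to 881. Next came chrUn_KN149690v1 with 19 peaks from 210491 to 336490, scoring 33 to 647. The 16 peaks of chrUn_KN149695v1 lay between 38641 and 148060 and scored only 30 to 196. The median scores of these 4 scaffolds were 67, 81, 72 and 58, near the 77 of the list.

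The scaffold chrUn_KN149682v1 differed from those 4 in its highest score. Its 14 peaks lay between 2901 and 93210, were 320 to 12290 bp wide and scored 28 to 6292. The scaffolds chrUn_KN150148v1, chrUn_KN150667v1 and chrUn_KN150616v1 had 11 peaks each, with highest scores of 758, 320 and 263, and chrUn_KN149687v1 had 10, with a highest score of 671. The densest of the 10 was chrUn_KN150455v1. Its 9 peaks lay between 271 and 14310, all scored between 43 and 121, and no space between them was over 2590 bp. Over the 10 scaffolds median scores ranged from 49 to 115, above the list's median in 4, and median widths from 560 to 1570 bp, below the list's median in 9.

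**Figure D2:**
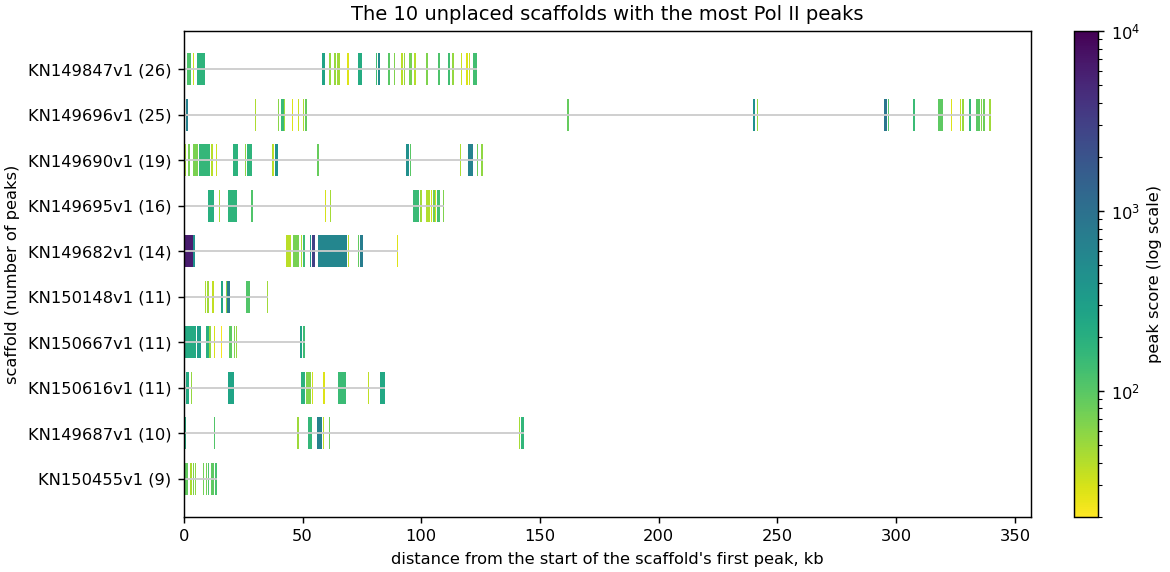
Map of the 10 unplaced scaffolds with the most Pol II peaks, 1 per line with the number of peaks in brackets. The x axis is the distance in kb from the start of the scaffold's first peak, each block is a peak drawn to scale and its colour is the score on a log scale. Most blocks are narrow and pale, and chrUn_KN149682v1 has the darkest block, with a score of 6292.

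Median scores were higher on scaffolds with few peaks than on those with many, with intervals that overlapped. Lone and clustered peaks of chr1 to chr25 were not set beside them, so the order is not shown to be particular to scaffolds. The 86 peaks that were alone on their scaffold had a median score of 114.5 (interval 83 to 153). It was 105.5 (80 to 136) for the 116 peaks on scaffolds with 2 or 3 peaks, 75 (61 to 86) for the 146 on scaffolds with 4 to 7, and 71.5 (60 to 86) for the 176 on scaffolds with 8 or more. Median widths showed no such order, at 655, 765, 835 and 690 bp.

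Among the 1000 highest scoring peaks of the whole list were 9 of the lone peaks (10.5%, exact binomial 95% interval 4.90 to 18.9) and 2 of the 176 on the fullest scaffolds (1.14%, 0.138 to 4.04). The top 1000 made up 4.94% of the list. These classes of scaffolds were chosen after the values were seen.

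Scores on scaffolds were close to those on chromosomes. The median score was 83 on scaffolds (order-statistic 95% interval 75 to 89), against 77 on chr1 to chr25 (76 to 79) and 85 beyond 30 Mb of chromosome 4 (80 to 88). The quartiles were 49 and 174.75 on scaffolds and 46 and 177 on chr1 to chr25. Of the 524 scaffold peaks, 27 on 22 scaffolds were among the top 1000, a share of 5.15% (3.42 to 7.41) against 4.93% (4.64 to 5.25) on chr1 to chr25. The difference was 0.218 percentage points (Newcombe interval −1.40 to 2.48), which included 0. With the top 500 in place of the top 1000 the shares were 3.82% on scaffolds and 2.43% on chr1 to chr25, a difference of 1.38 points (0.0312 to 3.40).

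The highest scoring scaffold peaks included a pair that began at the first base of their scaffold. The highest score, 16909, belonged to a peak of 14270 bp that began at the first base of chrUn_KN149723v1, and it ranked 42nd in the whole list. The next, 16564, belonged to a peak of 31860 bp that began at the first base of chrUn_KN150342v1. The third was on chrUn_KN150351v1 (42881 to 49220) and scored 13228. These 3 were the scaffold peaks above a score of 10000, of 82 in the list. They made up 0.573% (0.118 to 1.66) of scaffold peaks, near the 0.405% of the list. The following pair were the only peaks of their scaffolds, chrUn_KN150374v1 (2981 to 9770, score 9526) and chrUn_KN150647v1 (11621 to 14550, score 7053).

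The remaining 5 of the 10 highest scored between 4118 and 6292. They lay on chrUn_KN149682v1 (2901 to 6680), chrUn_KN150001v1 (14731 to 20960), chrUn_KN149688v1 (56791 to 99450), chrUn_KN150442v1 (30681 to 38720) and chrUn_KN149795v1 (13711 to 24700). The 10 peaks thus came from 10 scaffolds, and 3 of them were alone there.

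**Figure D3:**
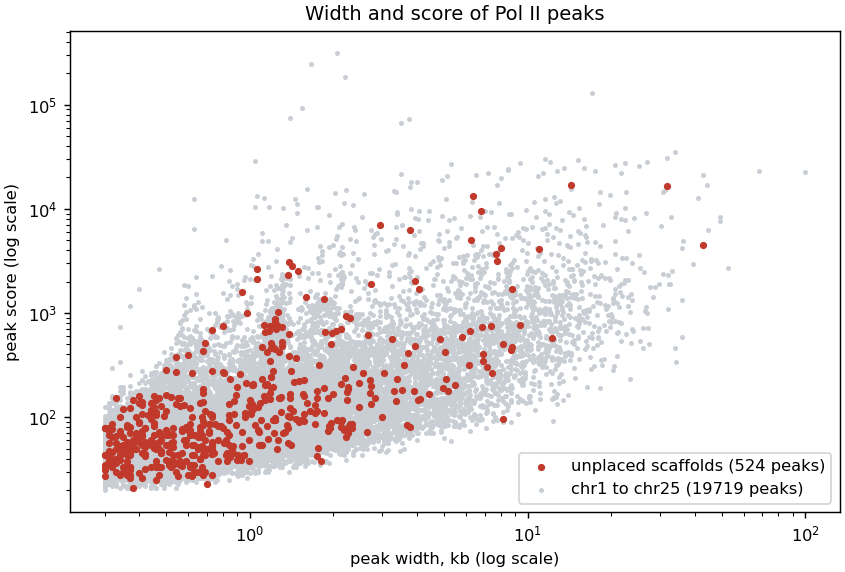
Score (y, log scale) against width in kb (x, log scale) of each Pol II peak, with the 524 peaks on unplaced scaffolds in red and the 19719 on chr1 to chr25 in grey. Scaffold peaks reach 42660 bp and a score of 16909, below the largest values on chromosomes, and a column of red points stands near 1.2 kb between scores of about 177 and 1000.

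Scaffold peaks were somewhat narrower in the median than peaks on chr1 to chr25. Their median width was 730 bp (680 to 830), against 860 bp on chr1 to chr25 (840 to 870). It was 840 bp beyond 30 Mb of chromosome 4 (800 to 880), an interval that overlapped that of scaffolds. With only the highest scoring peak of each cluster, joined across spaces of 10 kb or less, the difference from chr1 to chr25 was −70 bp (−280 to 60). That interval included 0, and the direction was the same in all 9 alternatives tried. Widths on scaffolds spanned 300 to 42660 bp, with quartiles of 460 and 1380 bp, and on chr1 to chr25 the quartiles were 490 and 1750 bp. Peaks under 500 bp made up 28.8% on scaffolds and 26.0% on chr1 to chr25.

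Broad peaks, in which Pol II is spread over a long stretch of sequence, made up a smaller share on scaffolds. Peaks of 10 kb or more numbered 5 on scaffolds, a share of 0.954% (0.311 to 2.21), against 2.81% (2.58 to 3.05) on chr1 to chr25 and 1.48% beyond 30 Mb of chromosome 4. The list as a whole had 2.76%. The difference from chr1 to chr25 was −1.86 percentage points (−2.45 to −0.576). Peaks of 5 kb or more numbered 30 on 25 scaffolds, or 5.73% (3.90 to 8.07), beside 7.98% in the list. Beyond 30 Mb of chromosome 4 they made up 4.07% (3.33 to 4.92), a lower share than on scaffolds. On chr1 to chr25 they made up 8.04% (7.66 to 8.43), and the interval of the difference, −2.31 points (−4.04 to 0.0468), included 0.

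Scaffold length limits the width of a peak, and its part in these differences was not tested because lengths were not used here. On scaffolds whose last peak ended beyond 20 kb, a choice made after the data were seen, 6.17% of peaks were 5 kb or more, against 8.04% on chr1 to chr25, a difference of −1.87 points (−3.93 to 1.07) whose interval included 0. The median width on these scaffolds was 710 bp, against 860 bp on chr1 to chr25. This difference was −150 bp (−200 to −40), beside −130 bp over all scaffolds. The share of peaks of 10 kb or more was not examined on these scaffolds.

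The broadest scaffold peak spanned 42660 bp of chrUn_KN149688v1 (56791 to 99450), scored 4532 and ranked 9th by width in the list. It was followed by the 31860-bp and 14270-bp peaks at the first bases of chrUn_KN150342v1 and chrUn_KN149723v1. The remaining peaks of 10 kb or more were a 12290-bp peak on chrUn_KN149682v1 (59221 to 71510) with a score of 574, and a 10990-bp peak on chrUn_KN149795v1 with a score of 4118. These 5 had a median score of 4532, against 1062.5 for the 554 of that width on chr1 to chr25. This difference rests on only 5 peaks, and the score of 574 lay below the median on chr1 to chr25. The other 5 of the 10 broadest measured 8180 to 9350 bp and scored 445 to 1688. They lay on chrUn_KN149990v1 (7091 to 16440), chrUn_KN150038v1 (62561 to 71320), chrUn_KN149992v1 (48871 to 57630), chrUn_KN150342v1 (32591 to 41280) and chrUn_KN150617v1 (72541 to 80720). A peak on chrUn_KN150702v1 (165091 to 173270) was also 8180 bp wide and scored 96. It was placed after that of chrUn_KN150617v1, with a score of 502, because ties were ordered by score.

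At like score, the median scaffold peak was narrower than that of chr1 to chr25 in 3 of 4 bands, with intervals that overlapped in 2 of these 3. Bands were set by the quartiles of the score over the whole list. In the lowest band, under 46, the median width was 480 bp (420 to 550) on scaffolds and 450 bp on chr1 to chr25. From 46 to below 77 it was 530 bp (480 to 630) on scaffolds and 690 bp (680 to 710) on chr1 to chr25. From 77 to below 177 it was 925 bp (730 to 1100) on scaffolds and 1100 bp (1070 to 1140) on chr1 to chr25. Beyond 30 Mb of chromosome 4 the medians were 630 bp (580 to 690) from 46 and 970 bp (880 to 1030) from 77. Both lay below those of chr1 to chr25, with intervals that overlapped those of scaffolds. In the highest band, 177 or more, the 131 scaffold peaks had a median of 1750 bp (1370 to 2250), against 2280 bp (2180 to 2400) on chr1 to chr25 and 1280 bp (1260 to 1300) beyond 30 Mb of chromosome 4. Spearman's rho between score and width was 0.653 over the 524 scaffold peaks and 0.680 over chr1 to chr25. It describes peaks that share a library, and with the score read as above, width and score come from the same q values.

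**Figure D4:**
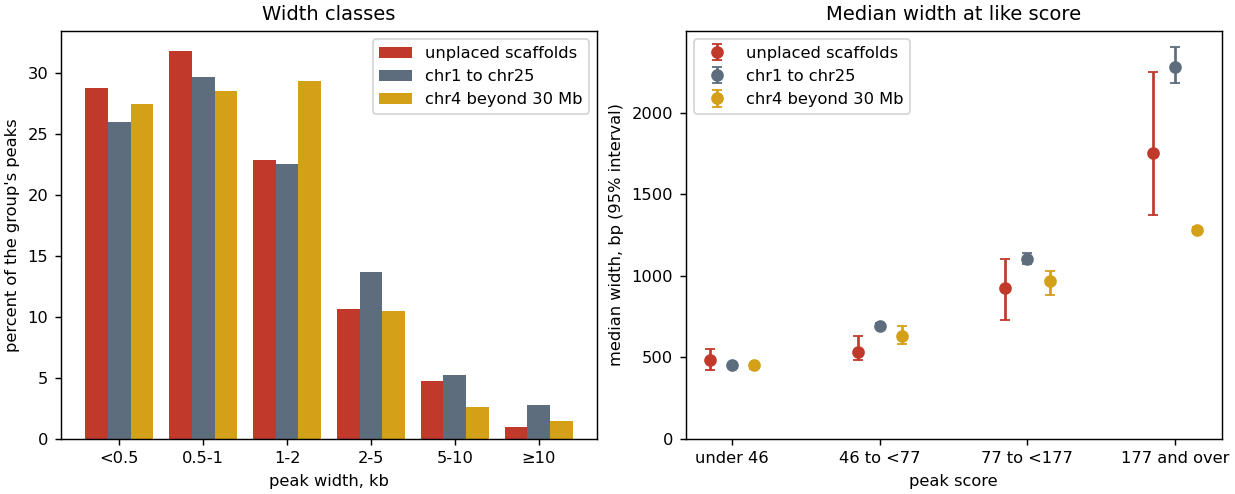
Left, percent of each group's peaks (y) in 6 classes of width in kb (x), for unplaced scaffolds (red), chr1 to chr25 (grey) and chr4 beyond 30 Mb (yellow). Right, median width in bp (y) with its 95% interval in 4 bands of score (x), where the scaffold median is 1750 bp in the highest band, below the 2280 bp of chr1 to chr25 and above the 1280 bp of chr4 beyond 30 Mb.

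A compact class of peaks stood out among the high-scoring scaffold peaks. Of the 131 scaffold peaks scoring 177 or more, 33 were at least 1.1 kb and under 1.4 kb wide, a share of 25.2% (18.0 to 33.5). They lay on 27 scaffolds, so no single scaffold supplied them, and 7 were alone on theirs. The share was 14.1% (13.1 to 15.1) of 4982 such peaks on chr1 to chr25 and 9.47% (8.60 to 10.4) of 4204 on these chromosomes without chromosome 4. Beyond 30 Mb of chromosome 4 it was 43.6% (39.8 to 47.4). The width window was chosen after this column of points was seen in the plot of score against width, so the shares describe it and do not test it. The excess over chr1 to chr25, 11.1 percentage points (Newcombe interval 4.37 to 19.2), was 6.56 points (1.85 to 12.3) for a score of 100 or more. With peaks within 500 bp of each other merged it was 4.95 points (−0.0394 to 12.2).

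The summits of most compact scaffold peaks lay off the centre. They were a median of 365 bp from the nearer bound (quartiles 305 and 415 bp). This median was 370 bp beyond 30 Mb of chromosome 4 and also 365 bp on chr1 to chr25 without chromosome 4. In 30 of the 33 (90.9%, 75.7 to 98.1) the summit lay at 20 to 40% of the width from the nearer bound, against 95.6% (92.6 to 97.6) of the compact peaks beyond 30 Mb of chromosome 4 and 76.6% (72.2 to 80.7) of those on chr1 to chr25 without chromosome 4. The share was 66.7% (44.7 to 84.4) of 24 scaffold peaks that scored 177 or more and had other widths from 0.8 to under 1.8 kb, an interval that overlaps that of the compact peaks. The window of 20 to 40% was not planned in advance. A summit is never farther from its nearer bound than the centre is, so many would lie in this window without any preference. The summit was towards the lower coordinate in 19 and towards the higher in 14, so the asymmetry had no common direction along the scaffolds. Scores of the 33 were 191 to 3064, with a median of 479.

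In many cases a second, small peak stood on the longer side of a compact peak. In 15 of the 33 (45.5%, 28.1 to 63.6) another peak lay within 1 kb beyond the bound farther from the summit, against 4 (12.1%, 3.40 to 28.2) beyond the nearer bound. The 33 include the 7 alone on their scaffold, which had no neighbour to count. No compact peak was alone on a chromosome, and the part of scaffold ends in these shares was not tested. The space to those 15 was a median of 350 bp, between 210 and 480 bp. The neighbours were a median of 410 bp wide, 11 of them under 500 bp, with a median score of 100. In the whole list no space was under 210 bp and no peak under 300 bp wide, so these values lie near its lower limits. The part of peak calling in this arrangement was not tested. The same side was favoured beyond 30 Mb of chromosome 4, with 56.8% of compact peaks having such a neighbour on the longer side and 17.3% on the shorter. On chr1 to chr25 without chromosome 4 these shares were 42.2% and 14.1%, so the arrangement was seen away from scaffolds too. Nor was it limited to compact peaks, since among the 24 other scaffold peaks of 177 or more in score and 0.8 to under 1.8 kb in width 37.5% had such a neighbour on the longer side and 12.5% on the shorter.

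Examples of this arrangement came from separate scaffolds. On chrUn_KN149696v1 a peak of 1230 bp (323001 to 324230) scored 881, with its summit 385 bp from the start and a neighbour of 460 bp beyond a space of 340 bp on the longer side. On chrUn_KN149688v1 a peak of 1250 bp (3621 to 4870) scored 767, with its summit at 415 bp and a neighbour of 450 bp across 340 bp. The mirror image was seen on chrUn_KN149847v1, where a peak of 1190 bp (81931 to 83120) scored 511, had its summit 405 bp from its end and had a neighbour of 410 bp across 380 bp. These 3 were chosen after their values were seen. The sequences of these peaks were not used here, so whether they are copies of 1 element was not tested.

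**Figure D5:**
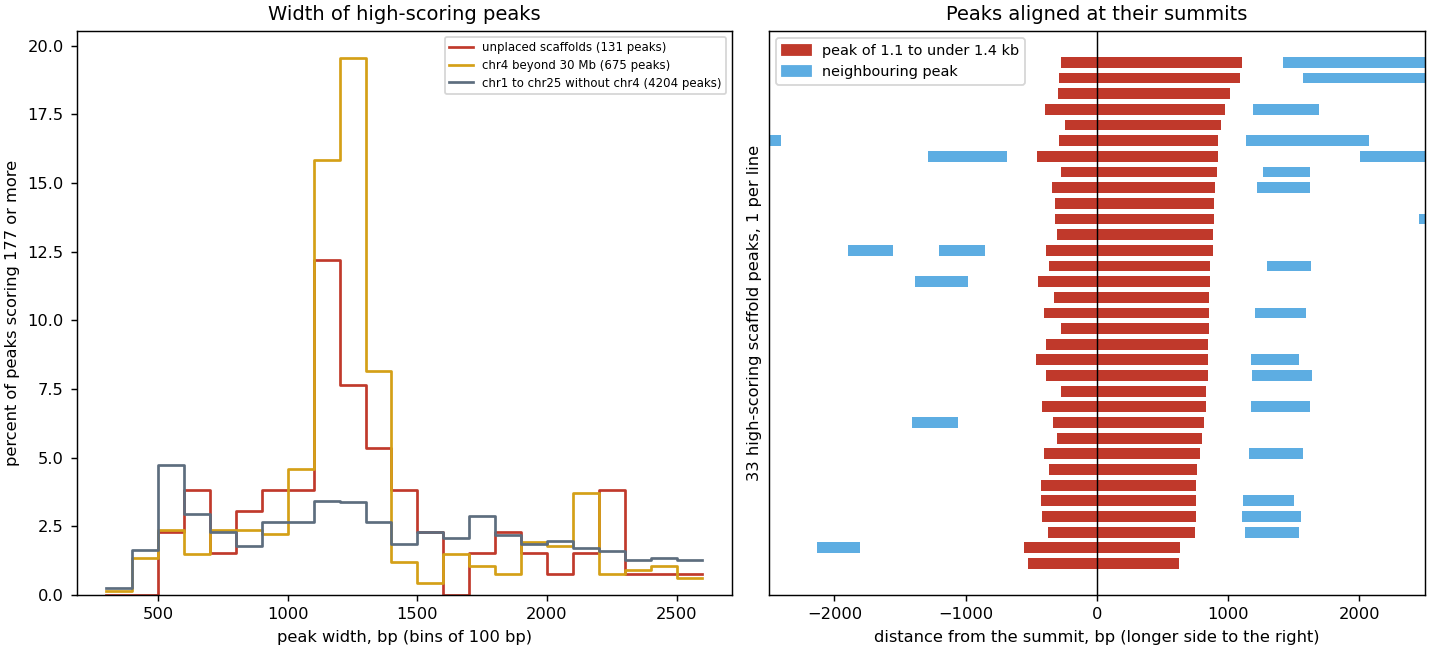
Left, percent of the peaks scoring 177 or more (y) by width in bins of 100 bp (x), for unplaced scaffolds (red, 131 peaks), chr4 beyond 30 Mb (yellow, 675) and chr1 to chr25 without chr4 (grey, 4204). Right, the 33 compact scaffold peaks, 1 per line, aligned at the summit with the longer side to the right (x, distance from the summit in bp), with neighbouring peaks in blue. Blue blocks stand beyond the longer side at a like distance in 15 lines within 1 kb.

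Most scaffold peaks had the summit in the middle 50% of the peak. The summit position, 0 at the start of a peak and 1 at its end, had a median of 0.482 on scaffolds (0.457 to 0.509) and 0.492 on chr1 to chr25 (0.489 to 0.5). Such a median shows little lean to either end and does not show that summits were central. The summit was in the middle 50% of the peak for 364 scaffold peaks (69.5%, 65.3 to 73.4), against 65.7% on chr1 to chr25. The interval of this difference, 3.76 points (−0.364 to 7.61), included 0, and the share beyond 30 Mb of chromosome 4 was 69.9%. Without any preference 50% of summits would lie in that middle part. Broad peaks had the summit near a bound more often than narrower ones. Of the 30 scaffold peaks of 5 kb or more, 15 (50%, 31.3 to 68.7) had the summit within 20% of the width from a bound, 9 at the start and 6 at the end, against 80 (16.2%, 13.1 to 19.7) of the 494 narrower ones. On chr1 to chr25 the share among broad peaks was 61.7% (59.3 to 64.1). The parts within 20% of both bounds are a large piece of any peak, so many summits would lie there without any preference. Whether summits of broad scaffold peaks lay there more often than that was not tested.

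Of the 11 broadest scaffold peaks, the tie for the tenth place included, 8 had the summit within 15% of a bound. This cut is narrower than the 20% used for broad peaks above, and the same 8 lie within either. The count was not set beside the broadest peaks of chr1 to chr25, and some summits would lie there without any preference. Whether 8 of 11 is more than that was not tested. In the 42660-bp peak of chrUn_KN149688v1 the summit lay at 6.76% of the width, 2885 bp from the start. In the peak of chrUn_KN149795v1 it lay at 96.0%, and in the peak of chrUn_KN149723v1, which began at the first base, at 3.68%. The exceptions were the pair on chrUn_KN150342v1, at 41.9% and 48.4%, and the peak of chrUn_KN150702v1, at 60.1%.

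Some Pol II peaks met the start of their scaffold. A total of 39 peaks began within 1 kb of the first base, on 38 of the 175 scaffolds (21.7%, 15.8 to 28.6), against 3 of the 25 chromosomes (12.0%, 2.55 to 31.2). At the first base itself began 9 peaks, on 9 scaffolds (5.14%, 2.38 to 9.54), against 2 chromosomes (8%, 0.984 to 26.0). The intervals overlapped, and scaffolds without a peak are not in these shares. Besides the peaks of chrUn_KN149723v1 and chrUn_KN150342v1, the 9 were those of chrUn_KN149789v1 (7790 bp, score 3134), chrUn_KN150527v1 (1130 bp, 659), chrUn_KN150591v1 (5790 bp, 592), chrUn_KN149704v1 (6920 bp, 402), chrUn_KN150368v1 (3040 bp, 266), chrUn_KN149895v1 (1740 bp, 153) and chrUn_KN150400v1 (330 bp, 153). The true extent of such a peak is unknown, since the sequence before the first base is not in the scaffold.

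The 39 peaks near the start had a median width of 730 bp and a median score of 93, against 730 bp and 81 for the other 485 scaffold peaks. More of them were broad, with 7 of 5 kb or more (17.9%, 7.54 to 33.5), against 23 of the other 485 (4.74%, 3.03 to 7.03). The grouping itself favours broad peaks, since a long peak reaches a scaffold start more readily and is then counted as starting there. Peaks of 31860, 14270, 7790, 6920 and 5790 bp began at the first base. The part of this in the difference was not tested. In the top 1000 were 4 of the 39 (10.3%, 2.87 to 24.2), against 4.74% of the others. How many peaks met the other end was not measured, since lengths were not used here.

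Fewer scaffold peaks than chromosome peaks had a close neighbour, and most of those without one were alone on their scaffold. Another peak lay within 10 kb for 401 of the 524 scaffold peaks (76.5%, 72.7 to 80.1), beside 83.4% of the list. The share was 83.5% (83.0 to 84.1) on chr1 to chr25 and 89.3% beyond 30 Mb of chromosome 4. Of the 123 scaffold peaks without such a neighbour, 86 were the only peak of their scaffold. A measure that looks only backwards, over peaks with at least 10 kb of sequence before them, was added after this was seen. By it 245 of 374 scaffold peaks (65.5%, 60.4 to 70.3) had a neighbour, against 65.5% (64.9 to 66.2) on chr1 to chr25, a difference of −0.0274 points (−5.02 to 4.66).

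Over all 349 spaces on scaffolds the median was 1390 bp (1130 to 1700), against 2530 bp (2450 to 2640) on chr1 to chr25. A space longer than a scaffold cannot be seen there, so scaffold length limits the spaces in this comparison and the next. Its part was not tested, and the medians do not show closer spacing on scaffolds. Restricted to spaces of 50 kb or less, the medians were 1340 bp (1060 to 1590) on scaffolds, 1260 bp (1220 to 1310) on chr1 to chr25 and 2230 bp beyond 30 Mb of chromosome 4, so the direction turned. Only 9 spaces on scaffolds were over 50 kb, and the longest was 109670 bp.

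Joined across spaces of 10 kb or less, scaffold peaks formed 222 clusters, of which 99 had 2 or more peaks and 29 had 5 or more. The 29 held 42.6% of scaffold peaks, against 51.9% in such clusters on chr1 to chr25. A scaffold with fewer than 5 peaks cannot hold such a cluster, so these shares do not show weaker clustering on scaffolds. The part of scaffold length in them was not tested. The cluster with the most peaks had 22, on chrUn_KN149847v1 (58671 to 123870), where peaks covered 18400 bp, or 28.2% of the span. In stretches of 50 kb that held a peak and ended by the end of the scaffold's last peak, scaffolds carried 3.83 ± 3.31 peaks (SD, 30 stretches). On chr1 to chr25 occupied stretches carried 2.98 ± 2.70 (SD, 6614 stretches), and the median was 2 in both groups. The condition on the last peak was set for scaffolds only and keeps long ones, so the means do not show a higher density there.

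Clusters differed widely in make-up. The cluster of largest covered length, on chrUn_KN149688v1 (50571 to 117270), had 4 peaks that covered 51430 bp, or 77.1% of its span. That on chrUn_KN150342v1 (1 to 41280) had only 2 peaks, which covered 98.2%. On chrUn_KN149682v1 (46091 to 78370), 10 peaks covered 21850 bp and reached a score of 3064. By contrast, the 8 peaks on chrUn_KN150702v1 (155041 to 179120) covered 82.6% of the span with no score over 203. A largely covered cluster thus occurred with high scores and with low ones.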

How the data were processed

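ChIP-seq of Pol II in 4 hpf embryos was represented by 1 list of 20243 peaks. According to the study's methods, reads were aligned to Zv10 (GRCz10) with Novoalign 2.8, with multi-mapping reads placed at random. After a merge of technical replicates with SAMtools, peaks were called with a multi-replicate wrapper around MACS2 against input, at a −log10 q of 2. The authors deposited an integer score per peak. The fields for fold enrichment, p and q held 0 throughout and were not used. Depth per sample is unknown from the list, so precision rests on numbers of peaks.

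Peaks on chrUn scaffolds were set beside those on chr1 to chr25 and those beyond 30 Mb of chromosome 4 with Python 3.11.15, pandas 2.3.3, SciPy 1.17.1 and NumPy 2.4.6. Shares carry exact binomial (Clopper-Pearson) 95% intervals, differences of shares Newcombe intervals and medians order-statistic intervals. The functions were tested on simulated data. With 1 pooled list, no test between groups was made. Alternatives changed the score minimum, the merging of peaks, the distances, the comparison chromosomes and the scaffolds included. Named regions were the 10 highest scoring and 10 broadest scaffold peaks, the 10 scaffolds with the most peaks and the 5 clusters of largest covered length, besides peaks said to be chosen otherwise. The members and lists were chosen with earlier results of these data known. Scaffold length and sequence, which need a genome of this build, were not used here.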

Additional observations from a re-analysis of the deposited data

How the results depend on the processing

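Of 81 alternatives to 11 values, 67 moved the value by less than its counting interval or, for counts, by less than 1.5 times, and 14 by more. In 8 of the 81 the sign of the difference turned, 4 of them for the share in the top 1000. All differences here are scaffolds minus chr1 to chr25. Among the top 25% of peaks by score, the share of peaks of 5 kb or more differed by −5.94 percentage points in place of −2.31, the median width by −530 bp in place of −130, the median score by 55 in place of 6, the median summit position by −0.0688 in place of −0.0103 and the median space by −60330 bp in place of −1140. In the same peaks the mean per scaffold was 1.64 in place of 2.99, and 13 in place of 39 began within 1 kb of the start. With 1 peak per cluster, the share of 5 kb or more differed by −6.46 points and the median score by −12.5. The median space differed by −4430 bp for scores of 50 or more, by −3510 bp with peaks within 500 bp merged and by 80 bp over spaces of 50 kb or less. Scaffold length limits the spaces in every one of these settings, also among the top 25%. The share with a neighbour within 10 kb, −7.02 points as reported, differed by −0.0274 points looking backwards only and by 8.01 points on scaffolds with 2 or more peaks, both added after the data were seen. The excess of compact peaks, 11.1 points, ranged from 4.95 points with peaks merged to 15.7 points without chromosome 4, over 6 alternatives added after the data were seen. The share in the top 1000, 0.218 points as reported, lay between −0.913 points, on scaffolds whose last peak ended beyond 20 kb, and 1.38 points, in the top 500, and peaks per occupied 50-kb stretch, 1.29 times those of chr1 to chr25 as reported, between 0.987 times among the top 25% and 1.86 times in 100-kb stretches. No paired analysis was possible because replicates were pooled in 1 list, and none could be left out. Scaffold lengths and sequences were not analysed here.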
